A study of Mus musculus with 2 samples.

Results

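The barcodes described here are the control hepatocyte barcodes that carried many molecules of the nuclear RNA Malat1 and few of other cell types. A barcode of the control library was taken when it held at least 7 UMIs (unique molecular identifiers, 1 for each captured RNA molecule) of Malat1. It also had to hold no more than 2 UMIs in all of Ptprc, Coro1a, Laptm5, Csf1r, Cd3e, Cd79a, Nkg7, Kdr, Ptprb, Egfl7, Ramp2 and Dcn, which mark leukocytes, endothelial cells and stellate cells. This left 73 of 2989 control barcodes, or 2.44% (95% exact binomial interval 1.92 to 3.06%), out of 4513 barcodes in both libraries of the series. They are compared with the 2776 control barcodes that passed the same marker limit but held 0 to 6 Malat1 UMIs, called Malat1-poor barcodes below. The members were chosen by their Malat1 UMIs and by the summed UMIs of those 12 markers, so these are given as a description only.

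The study sequenced RNA of single cells from perfused livers of C57BL/6 mice, with 1 library for each of 2 groups. The control library (LaptTA;WT) came from mice with the tTA transactivator, which the liver-enriched LAP promoter drives, and without a tetYAP transgene. The second library (LaptTA;tetYAP, called tetYAP 4W) came from mice that carry the same tTA and a tTA-dependent, constitutively active YAP (the S127A mutant). Doxycycline in the food kept that transgene off until a regular diet from 4 weeks of age induced it, here for 4 weeks. The controls therefore also carry tTA, and the number of animals behind each library is not given in the sources used here. With 1 library a group and barcodes that share it, no difference was tested. All intervals cover counting error only and take the UMIs as independent.

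Malat1 and Neat1 are long noncoding RNAs that stay in the nucleus, where Malat1 gathers at the nuclear speckles that store splicing factors and Neat1 builds the paraspeckles. In liver cells the mRNA of Mlxipl, the carbohydrate-sensing transcription factor ChREBP, is also largely held in the nucleus. Cytoplasmic mRNAs of the liver, such as that of albumin, escape easily from damaged hepatocytes and can then be captured with any barcode. Hepatocytes also differ by their place in the lobule. Pericentral cells, beside the central vein, are known for drug metabolism, bile acid synthesis and glutamine synthesis, and periportal cells, beside the portal vein, for gluconeogenesis and the urea cycle.

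Among all control barcodes within the marker limit, Malat1 fell off steeply and then left a gap. The numbers of barcodes with 0, 1, 2, 3, 4, 5 and 6 UMIs were 532, 801, 700, 418, 200, 85 and 40. Just inside the limit, 19 members held 7 UMIs, 11 held 8, 7 held 9 and 2 held 10. No barcode held 11 or 12, and the last 34 members held 13 to 176, with a median of 37.5. The members thus fell into a lower set of 39 barcodes that continued the fall of the Malat1-poor barcodes and an upper set of 34 beyond the gap. This division was seen in the data and was not part of the choice of members.

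**Figure D1:**
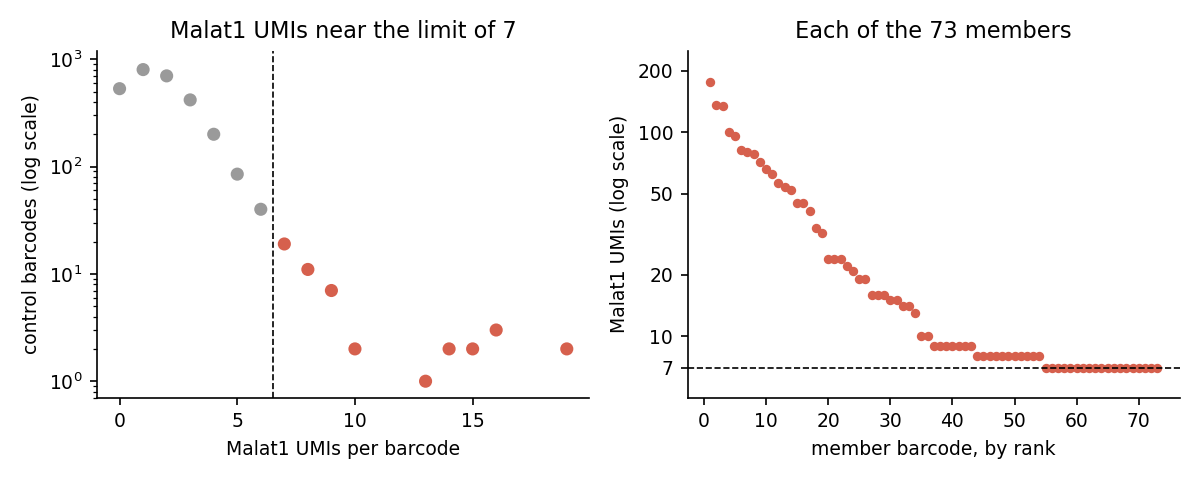
Left, number of control barcodes within the marker limit (vertical axis, log scale) at each Malat1 UMI count, shown to 19 UMIs, grey for Malat1-poor barcodes and red for members, with a dashed line at the limit. Right, Malat1 UMIs (log scale) of each of the 73 members by rank, dashed at 7. Counts fall from 801 barcodes at 1 UMI to 2 at 10 UMIs, none holds 11 or 12, and 34 members lie at 13 to 176.

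On either side of the limit the barcodes were alike in genes detected and Mlxipl, but not in Neat1. The 40 barcodes with 6 Malat1 UMIs had a median of 943 genes detected, 13 Neat1 UMIs in 6 barcodes and 2 Mlxipl UMIs in 2 barcodes. The 19 members with 7 Malat1 UMIs had a median of 929 genes, 20 Neat1 UMIs in 9 members and 2 Mlxipl UMIs in 2 members. Neat1 thus came to 0.325 UMIs a barcode at 6 Malat1 UMIs and 1.05 at 7. The limit itself lies in the falling part of the Malat1 distribution and not in the gap above it.

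The members held a median of 3650 UMIs (quartiles 3060 and 4562, range 924 to 6865), against 3096 (2871 and 3326) in the Malat1-poor barcodes. They detected a median of 1178 genes (248 to 2200), against 900. At equal depth the difference was larger in the upper than in the lower set. Averaged over all ways to thin a barcode to 2000 UMIs, which left out 4 members and 84 Malat1-poor barcodes, the upper set detected a median of 865 genes and the lower set 681, against 670 in the Malat1-poor barcodes. The share of UMIs from the mitochondrial genome had a similar median in the members, 27.5%, and in the Malat1-poor barcodes, 28.2%, and reached 75.8 and 78.0% in single barcodes. Of the 73 members, 14 (19.2%, 10.9 to 30.1%) had more than 50% mitochondrial UMIs, with no member between 47.6 and 60.9%, against 27 Malat1-poor barcodes (0.973%).

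Neat1 and Mlxipl, which the choice of members did not use, were both more frequent in members, and in the lower set Neat1 more clearly so. Neat1, on chromosome 19 from 5824708 to 5845480 (GRCm38) and 22035 bases from Malat1 (5795690 to 5802672), was detected in 48 of 73 members, 65.8% (53.7 to 76.5%). It was detected in 8.97% (7.93 to 10.1%) of the Malat1-poor barcodes. Members held 0 to 21 Neat1 UMIs each, with a median of 2, and it was found in 28 of the 34 upper and 20 of the 39 lower members. Mlxipl, on chromosome 5 from 135089890 to 135139768, was detected in 30 members, 41.1% (29.7 to 53.2%), with 0 to 12 UMIs, against 10% (8.92 to 11.2%) of the Malat1-poor barcodes. At 2000 UMIs the mean Mlxipl shares were 36.2 and 6.68%. At 2 or more Mlxipl UMIs the shares lay further apart, at 24 members (32.9%) and 13 Malat1-poor barcodes (0.468%).

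The share with Mlxipl rose mainly beyond the gap. It was 9.59% at 0 Malat1 UMIs, 10.2% at 1 to 4 and 8.80% at 5 and 6. Among members it was 15.4% (6 of 39) at 7 to 10 Malat1 UMIs, 64.7% (11 of 17) at 13 to 39 and 76.5% (13 of 17) at 40 or more. The level of about 10% was thus the same across all Malat1-poor barcodes, whatever their Malat1 count. In the control barcodes that passed the Malat1 limit but exceeded the marker limit, which are other liver cells by the rule, Mlxipl was detected in 13 of 103, or 12.6% (6.90 to 20.6%). Their median depth was 4546 UMIs. At 2000 UMIs the shares were 62.4% in the upper set, 10.8% in the lower set and 5.90% in the other liver cells. The 6 lower members with Mlxipl held 12 UMIs between them. In CPM the lower set thus had a log2 ratio of 1.40 (0.43 to 2.22) to the Malat1-poor barcodes.

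All 30 members with Mlxipl also held Neat1, and 18 members held Neat1 without Mlxipl. The remaining 25 (34.2%) held neither, a state found in 82.5% of the Malat1-poor barcodes. Both RNAs were present together in 42 Malat1-poor barcodes (1.51%), whose median Malat1 count was 2. Across the 73 members, the Neat1 and Mlxipl shares of UMIs had a Spearman rho of 0.80, against 0.07 across the Malat1-poor barcodes. The Malat1 share followed the Mlxipl share less closely, with a rho of 0.49 in the members. These coefficients describe barcodes of 1 library that share its depth and its free RNA.

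**Figure D2:**
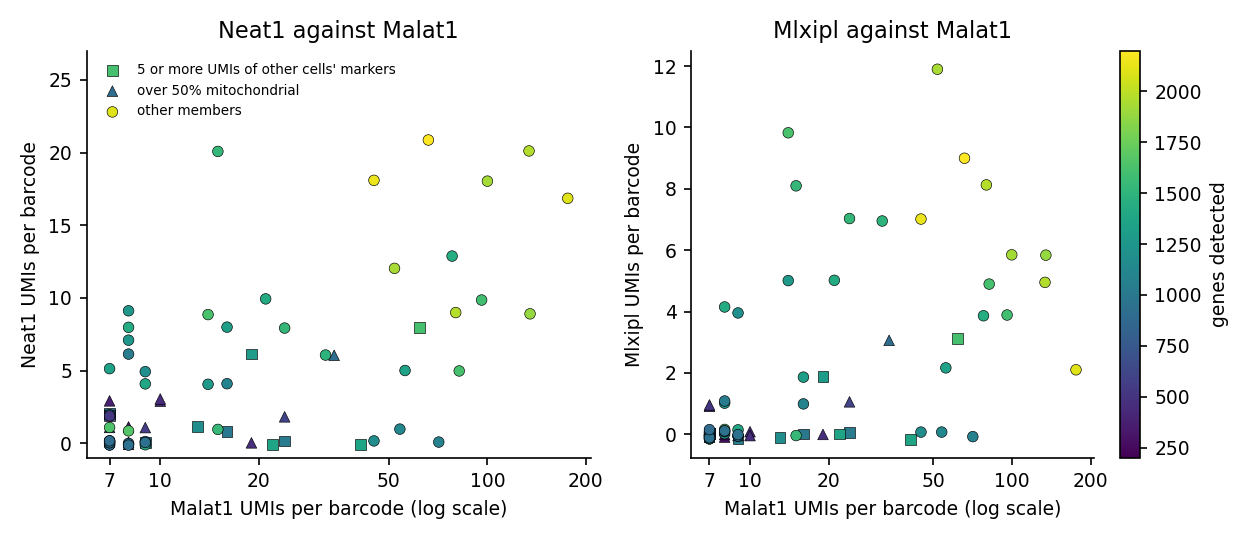
Neat1 UMIs (left) and Mlxipl UMIs (right) of each of the 73 members (vertical axes, points jittered vertically) against its Malat1 UMIs (horizontal axes, log scale); colour gives the genes detected, squares the members with 5 or more UMIs of other cells' markers, and triangles those with more than 50% mitochondrial UMIs. Members at 13 to 176 Malat1 UMIs hold most of the Neat1 and Mlxipl (252 of 320 Neat1 UMIs), and most squares and triangles hold few UMIs of either.

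The label of intact hepatocytes held for some members only. Taken in this order, with classes set after their values were seen, 11 members held 5 or more UMIs of markers of other liver cells, 12 more had a mitochondrial share over 50%, 24 more held Mlxipl, 9 more held Neat1 without Mlxipl, and 17 held neither. The 24 members of the Mlxipl class were gene-rich, with a median of 1530 genes (1035 to 2200), 22.4% mitochondrial UMIs (14.9 to 42.9%) and 8 to 176 Malat1 UMIs. They carried 254 of the 320 Neat1 UMIs and 125 of the 136 Mlxipl UMIs, the latter in part by the definition of the class. The 12 mitochondrial members held few genes, with a median of 459.5 (248 to 909), and 6 Mlxipl UMIs in 4 members. The 17 members with neither RNA had a median of 943 genes and 7 Malat1 UMIs, close to the barcodes just below the limit. Albumin was low in the mitochondrial members, with a median of 45 Alb UMIs (17 to 66). In the other classes its median lay between 84 and 115 UMIs, against 88 in Malat1-poor barcodes and 101 in the other liver cells.

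Markers of other cell types that the rule did not list stood in a few members. Kupffer cell markers summed to 46 UMIs, of which 18, 18 and 6 lay in 3 members, and Cd5l and Clec4f, both typical of Kupffer cells in the liver, made up 13 and 9 of them. Endothelial markers summed to 47 UMIs, with 18, 8 and 7 in 3 members. Stellate cell markers summed to 31 UMIs, with 7 in each of 2 members. Lymphocyte markers summed to 35 UMIs, with 14, 5 and 5 in 3 members, and 21 of these came from Cd74, which other antigen-presenting cells also use. Cholangiocyte markers summed to 5 UMIs with Krt19, Krt7 and Epcam at 0, and neutrophil markers were at 0. Erythroid markers were 2.62 log2 units lower in CPM than in the Malat1-poor barcodes, at 16 UMIs. In the 30 Mlxipl members the Kupffer markers came to 1 UMI, the stellate markers to 5, the endothelial markers to 10 and the lymphocyte markers to 16. Of these 16 lymphocyte UMIs, 14 lay in 1 member. The log2 ratio of lymphocyte markers to the Malat1-poor barcodes, 2.69 in the Mlxipl members and 2.70 in all members, thus rested mainly on that member in the former. The part of these markers in the results below was not tested.

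For the comparison of RNA content, UMIs of each gene were summed over the members and over the Malat1-poor barcodes, scaled to counts per 1000000 UMIs (CPM) and compared as a log2 ratio, with sums under 3 UMIs set to 3. The members held 278761 UMIs in all and the Malat1-poor barcodes 8624510, so a rare gene tends to a raised ratio. The median log2 ratio was 0.69 over all genes with at least 20 UMIs, 0.12 over genes with at least 100 UMIs and -0.23 over genes with at least 1000. Counts of genes past a 1.5-fold limit are therefore given at 100 UMIs or more, where 27.9% of 4534 genes were higher and 9.04% lower. At 1000 UMIs or more, 4.89% of 797 genes were higher and 9.66% lower.

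RNAs known for nuclear retention were the group that differed most. Without Malat1, the 5 listed genes with at least 100 UMIs were all more than 1.5-fold higher in the members, against 27.9% of all such genes. The list summed to 676 UMIs in members and 1588 in Malat1-poor barcodes, a log2 ratio of 3.72 (3.59 to 3.85). That is 9.26 UMIs a barcode in the members and 0.572 in the Malat1-poor barcodes. The log2 ratio was 4.39 in the upper set, 2.27 in the lower set, 4.69 in the Mlxipl members and 1.31 in the members without Mlxipl. The list holds Mlxipl itself, so the last 2 ratios follow in part from how those members were split. Neat1 held 320 member UMIs against 309, a log2 ratio of 5.0 (4.77 to 5.23). Mlxipl held 136 against 292, a log2 ratio of 3.85 (3.54 to 4.15). Chka, a choline kinase, held 68 against 223 (3.24, 2.82 to 3.64). Nlrp6, an innate immune sensor, held 56 against 231 (2.91, 2.46 to 3.33), and Gcgr, the glucagon receptor, 64 against 481 (2.04, 1.64 to 2.42). These 3 coding mRNAs were therefore raised with the noncoding RNAs. Kcnq1ot1, an imprinted noncoding RNA of the nucleus, held 25 UMIs in members and 24 in Malat1-poor barcodes, and so fell under the 100-UMI limit for counts.

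The genes of the spliceosome and of nuclear speckles were also higher. Of 23 with at least 100 UMIs, 20 were more than 1.5-fold higher and none lower, against 27.9 and 9.04% of all such genes. The list summed to 1021 UMIs in members and 8563 in Malat1-poor barcodes, a log2 ratio of 1.88 (1.79 to 1.98), with 2.39 in the upper set, 1.03 in the lower set and 2.47 in the Mlxipl members. Luc7l2, a splicing regulator of the U1 particle on chromosome 6, differed most, with 148 UMIs in 40 members against 328 UMIs and a log2 ratio of 3.80 (3.51 to 4.09). The RNA helicases Ddx5 (170 UMIs) and Ddx17 (39 UMIs) had log2 ratios of 2.13 and 2.73, and the speckle protein Son (55 UMIs) 1.46. The splicing factors Srsf2 and Srsf5 stood at 1.77 and 1.92. Srsf3 (0.37, -0.30 to 0.97), Srrm1 (0.39) and Nono (0.52) did not pass the fold limit. The other liver cells held a like number per barcode, 15.4 UMIs against 14.0 in the members and 3.08 in the Malat1-poor barcodes.

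Regulators of hepatocyte identity differed less. Of 21 transcription factors with at least 100 UMIs, 8 were more than 1.5-fold higher and none lower, where 27.9% of all genes were higher. They summed to a log2 ratio of 0.63 (0.50 to 0.75), with 0.94 in the upper set, 0.19 (-0.02 to 0.40) in the lower set and 0.97 in the Mlxipl members. Nfib (52 UMIs, 1.78) and Onecut2 (51 UMIs, 1.60) stood highest among those with over 50 member UMIs. Creb3l3, a liver factor of fasting metabolism, had 59 UMIs and 0.66 (0.26 to 1.04). Hnf4a, the central hepatocyte factor, had 26 member UMIs and a log2 ratio of -0.04 (-0.67 to 0.52). Cebpa and Cebpb stood at 0.36 and 0.29. The rise was thus uneven, with the best known identity factors near their level in Malat1-poor barcodes.

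Transporters and receptors of the hepatocyte membrane behaved likewise. Of 18, 8 were past the fold limit upward and none downward, where 27.9% of all genes were higher and 9.04% lower. The list had a summed log2 ratio of 0.41 (0.33 to 0.48), or 0.68 in the Mlxipl members. Abcc2, which exports conjugated bilirubin into bile, had 66 UMIs and 1.86. The organic anion importer Slco1b2 had 240 UMIs and 0.75 (0.56 to 0.94), and the fatty acid transporter Slc27a2 138 UMIs and 0.73. Slco1a1, an importer of the same family, had 145 UMIs and 0.00, and the growth hormone receptor Ghr 116 UMIs and 0.41. Of 5 clock genes at 100 UMIs or more, 4 were higher, against the same 27.9% of all genes. The clock list, with 70 member UMIs, had a log2 ratio of 1.21 (0.84 to 1.56), or 1.76 in the Mlxipl members.

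The abundant secreted proteins were lower, a direction shared by abundant genes in general. None of 32 plasma protein genes passed the fold limit in either direction, where 27.9% of all genes were higher and 9.04% lower. Over all genes of 1000 UMIs or more, 4.89% were higher and 9.66% lower, with a median log2 ratio of -0.23. The plasma protein list had a median log2 ratio of -0.36 and a summed log2 ratio of -0.37 (-0.38 to -0.35). The summed ratio was -0.45 in the upper set, -0.29 in the lower set and -0.49 in the Mlxipl members. Albumin itself (chromosome 5, 90460870 to 90476602) held 6662 member UMIs and a log2 ratio of -0.24 (-0.28 to -0.21). The transthyretin gene Ttr and the major urinary protein gene Mup3 stood at -0.52 and -0.52, the apolipoprotein gene Apoa1 at -0.48 and Apob at -0.01. Per barcode the sums were close, at 570 UMIs in members, 598 in Malat1-poor barcodes and 609 in the other liver cells. The median total was larger in members, 3650 against 3096 UMIs, so near-equal sums made a smaller share.

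The mitochondrial transcripts summed to a log2 ratio of 0.12 (0.11 to 0.13), but this direction changed with the members taken. It was -0.09 in the upper set, 0.32 in the lower set and -0.04 in the Mlxipl members. Only mt-Nd4l of the 13 genes passed the fold limit, at 0.64. The cytochrome oxidase gene mt-Co1 stood at 0.41 (0.39 to 0.44) and mt-Co3 at 0.05.

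**Figure D3:**
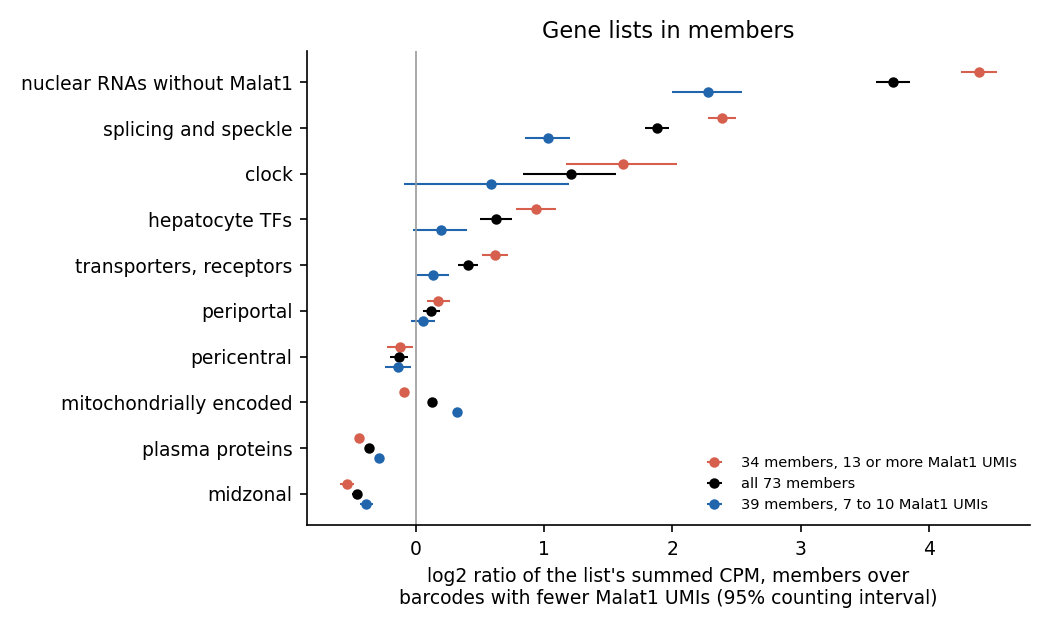
Summed log2 ratio of member to Malat1-poor CPM (horizontal axis) for each gene list (vertical axis), with 95% counting intervals; black is all 73 members, red the 34 with at least 13 Malat1 UMIs and blue the 39 with 7 to 10. The nuclear RNA and spliceosome lists lie furthest right, at 3.72 and 1.88 for all members, red lies to the right of blue in both, and plasma proteins lie left of 0 at -0.37.

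Genes with at least 100 UMIs were ranked without Malat1 and the markers of the rule and of other cell types. The 10 highest log2 ratios included Neat1, Mlxipl, Luc7l2 and Chka. The others were Ccnl1, a cyclin of the splicing machinery (27 UMIs, 3.5), Ogt, the enzyme that attaches O-GlcNAc (38 UMIs, 3.29), Echdc2 (90 UMIs, 3.42), Hjurp, a centromere histone chaperone (29 UMIs, 3.40), and the less known Gm12909 (39 UMIs, 3.88) and AC149090.1 (62 UMIs, 3.81). Echdc2 held 11 UMIs in the 103 other liver cells. The 10 lowest rested on 1 to 6 member UMIs each. Among them Ndufa9, a subunit of respiratory complex I, had 6 UMIs against 615 (-1.73, -3.18 to -0.60), and Tm2d2 3 UMIs against 355 (-1.94, -4.22 to -0.38).

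Zonated genes as a whole barely differed between the groups of barcodes. The 21 pericentral genes at 100 UMIs or more gave 3 past the fold limit upward and 2 downward, where 27.9% of all genes were higher and 9.04% lower, and the full list summed to a log2 ratio of -0.13 (-0.20 to -0.06). The 22 periportal genes gave 5 upward and none downward, with a sum of 0.12 (0.05 to 0.18). Cyp2e1, the pericentral cytochrome (chromosome 7, 140763819 to 140774990), held 252 UMIs in 60 members, 0 to 12 each, and a log2 ratio of -0.22 (-0.41 to -0.04). Cyp2f2, its periportal counterpart (chromosome 7, 27119955 to 27133660), held 185 UMIs in 65 members, 0 to 12 each, and a log2 ratio of 0.06. They were found in 82.2 and 89.0% of members. Glul, the glutamine synthetase of the innermost pericentral cells, held 15 UMIs in 13 members (-0.11).

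Of the 10 zonated genes past the limit, 8 were higher and 2 lower, the latter Cyp2c37 and Gstm3 with 4 and 3 member UMIs. Nr1i3, the constitutive androstane receptor that induces drug metabolism (chromosome 1, 171213934 to 171218845), held 52 UMIs against 318, a log2 ratio of 2.34 (1.89 to 2.77). The upper set gave 3.15 and the lower set 0.01, and 50 of the 52 UMIs lay in Mlxipl members. Cyp7a1, the rate-limiting enzyme of bile acid synthesis, held 26 UMIs and 1.29 (0.66 to 1.87). Of the periportal genes, the gluconeogenic enzymes Pck1 (chromosome 2, 173153073 to 173159274; 114 UMIs) and G6pc (chromosome 11, 101367716 to 101377903; 90 UMIs) had log2 ratios of 0.98 (0.70 to 1.26) and 1.13 (0.81 to 1.44). Uroc1, Etnppl and Sult5a1 (1.04, 1.07 and 1.07) were the other periportal genes, and Avpr1a, a vasopressin receptor with 11 UMIs, the other pericentral gene (1.0, -0.03 to 1.88). The urea cycle genes Ass1 (-0.46) and Cps1 (0.40) stayed within the limit.

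To describe the lobule position of single members, a score was formed from 4 pericentral genes (Cyp2e1, Glul, Oat and Cyp1a2) over 5 periportal genes (Cyp2f2, Ass1, Hal, Sds and Hsd17b13), as the log2 ratio of their summed UMIs plus 1. Other zonated genes were held out. The score ran from -4.70 to 1.70 over the members, with a median of -0.85 and an SD of 1.0, against a median of -0.74 and an SD of 0.915 in Malat1-poor barcodes. The upper 25% held 19 members (at -0.32 or above) and the lower 25% held 20 (at -1.26 or below), called the pericentral and the periportal end. Of the 19, 12 had a positive score. The pericentral end also took in barcodes with little to place them. A barcode of 1473 UMIs held 0 UMIs of the score genes, and barcodes of 924 and 1496 UMIs held 1 pericentral and 0 periportal UMIs each. The ends were close in depth, with medians of 4138 and 3725 UMIs, and in the number with Mlxipl, 11 and 9. Their mitochondrial shares were 23.6 and 28.6%, and their median Malat1 counts 16 and 12.5 UMIs.

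The held-out genes separated along the score in the members. Held-out pericentral genes summed to 441 UMIs at the pericentral end and 270 at the periportal end, a log2 ratio of 0.74 (0.52 to 0.96). In Malat1-poor barcodes split the same way, into 744 and 695, the log2 ratio was 0.10 (0.06 to 0.14). Held-out periportal genes gave 338 and 473 UMIs, a log2 ratio of -0.46 (-0.66 to -0.25), against -0.10 (-0.14 to -0.06) in Malat1-poor barcodes. The intervals of members and Malat1-poor barcodes did not overlap for either list. Past the fold limit were 3 of 7 pericentral genes upward and 3 of 10 periportal genes downward in the members, where 21.4% of all genes were higher at the pericentral end and 11.8% lower. In Malat1-poor barcodes, 2 of 19 pericentral genes were higher and 1 of 18 periportal genes lower, where 5.49% of all genes were higher and 7.17% lower.

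The gene medians were less stable than the sums. The median log2 ratio of the held-out pericentral genes in members was 0.39 (-0.09 to 1.31), and it dropped to 0.08 when members were thinned to 2000 UMIs and to 0.11 when Cyp2e1 and Cyp2f2 were left out of the score. That of the periportal genes was -0.33 (-1.05 to 0.44). In the 30 Mlxipl members alone the pericentral sum had a log2 ratio of 0.67 (0.35 to 1.0) and the periportal sum -0.59 (-0.88 to -0.31). The 2 ends of the Mlxipl members differed in Malat1, with medians of 78 UMIs at the pericentral and 20 at the periportal end. The midzonal genes, which peak between the veins, differed by 0.09 (-0.01 to 0.20).

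A few held-out genes separated widely. Nr1i3 held 43 UMIs in 11 of 19 members at the pericentral end, 8 in 4 of 34 members between the ends and 1 in 1 of 20 at the periportal end, and the 95% interval of the log2 ratio between the ends was 2.90 to 10.8. Without the 3 members highest in Nr1i3 at the pericentral end, 24 UMIs remained against 1. Rgn, a calcium-binding protein of pericentral cells, held 55 against 25 UMIs (1.17, 0.46 to 1.91), Cyp2c29 54 against 29 (0.93, 0.25 to 1.63) and Cyp7a1 14 against 2. In the other direction, G6pc held 17 UMIs in 9 of 19 members against 48 in 12 of 20 (-1.47, -2.36 to -0.64). Pck1 held 18 UMIs in 7 of 19 against 51 in 16 of 20 (-1.47, -2.34 to -0.67). The drug-metabolising Cyp3a11, with 80 against 83 UMIs (-0.02), and Cps1, with 73 against 94 (-0.34), did not separate past the limit. Glul, part of the score, held 5 and 5 UMIs at the ends. Genes outside the zonation lists separated as well. The RNA helicase Ddx17 held 28 against 5 UMIs and Hjurp 17 against 5, while Dpyd, with 3 against 18, and Idi1, with 4 against 18, went the other way. The part of nuclear RNA content in the separation of the ends was not tested.

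Among single members, the score and the same ratio of the held-out genes had a Spearman rho of 0.34 over all 73 and 0.76 over the 30 with Mlxipl, against 0.07 over the Malat1-poor barcodes. These coefficients are given with no test, since both ratios come from the same barcodes. A positive score, with more pericentral than periportal UMIs, was found in 12 members, 7 of them with Mlxipl. Of these 7, 6 also had a positive ratio of the held-out genes, against 1 of the 5 without Mlxipl. Among these 5 were barcodes of 924 and 1496 UMIs with mitochondrial shares of 65.9 and 72.5%. Their scores rested on 1 pericentral and 0 periportal UMIs each. Another of the 5 held 18 UMIs of Kupffer cell markers. The part of such barcodes in the contrast was not tested.

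**Figure D4:**
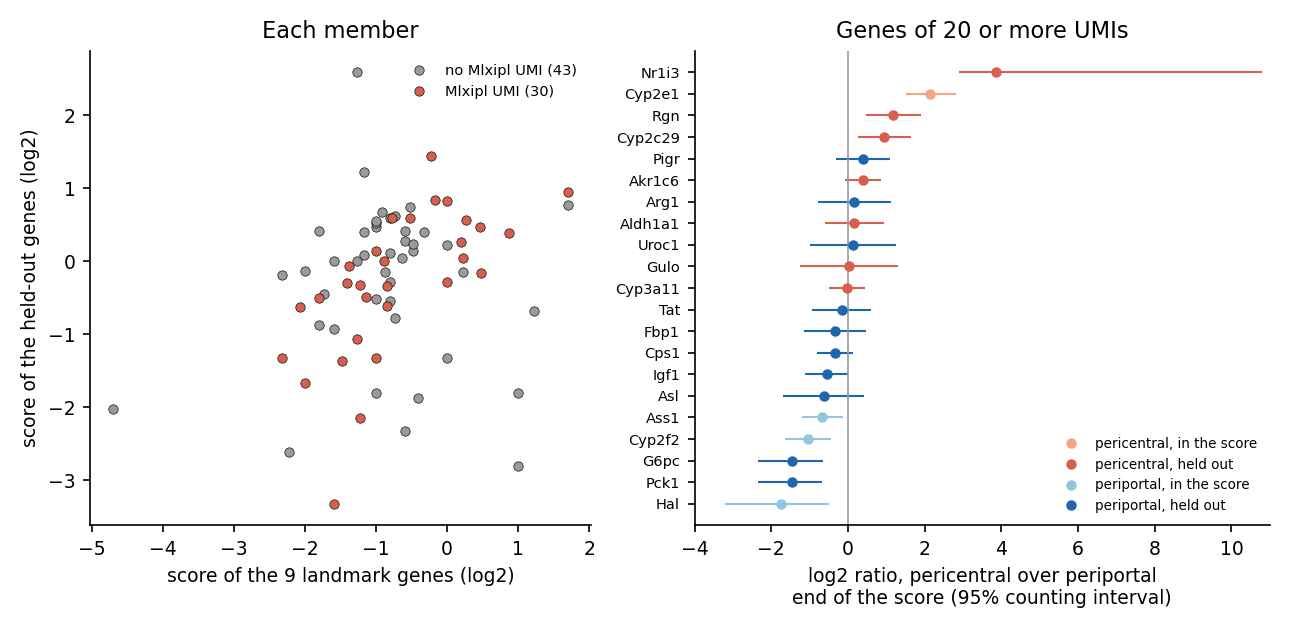
Left, the zonation score of each member (horizontal axis, log2) against the log2 ratio of held-out pericentral to periportal genes (vertical axis), with the 30 Mlxipl members in red and the 43 others in grey. Right, log2 ratio of CPM at the pericentral over the periportal end in members for zonated genes of 20 or more UMIs, with 95% counting intervals and sums under 3 set to 3; reds are pericentral, blues periportal, and pale colours the genes of the score. The rho is 0.76 over the 30 Mlxipl members and 0.34 over all 73, and Nr1i3 (43 against 1 UMIs) and G6pc (17 against 48) lie to either side in the members.

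Members varied among themselves more than Malat1-poor barcodes did, mainly in a few groups of genes. The dispersion index compares the spread of a gene's UMIs over barcodes, after allowing for their totals, with counting noise, for which it is 1. Over 3448 genes its median was 1.07 in members and 1.02 in Malat1-poor barcodes, and 136 genes were over 2 in members against 22. Mitochondrial genes varied most, with a list median of 14.4 in members and 3.53 in Malat1-poor barcodes, and mt-Co1 reached 94.6. Plasma protein genes had medians of 1.94 and 1.16, with Apoa2 at 11.8, Apoe at 9.09 and Alb at 8.21 in members. The mitochondrial share, which ranged from 12.7 to 75.8% in members, moves with all these shares, and its part was not tested.

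Outside these abundant groups, Malat1 (37.0, the measure used to choose members), Neat1 (5.94), Luc7l2 (4.64), Mlxipl (4.0) and Nr1i3 (3.36) also varied widely. Their values in Malat1-poor barcodes were 1.08, 1.87, 0.97, 1.0 and 0.96. These genes were also rarer there. Neat1 came to 4.38 UMIs a member and 0.111 a Malat1-poor barcode, and Nr1i3 to 0.712 and 0.115. For a rarer gene the same relative spread gives an index nearer 1, so these values do not compare spread alone. In the Mlxipl members alone Neat1 dropped to 1.99, and the median of the nuclear RNA list without Malat1 went from 2.41 to 1.40. That list holds Mlxipl, by which these members were taken. Zonated genes had a median of 1.21 (quartiles of 41 genes 1.04 and 1.64) in members against 1.05 (1.01 and 1.13), with periportal genes at 1.31 and pericentral genes at 1.12. G6pc (2.98), Pck1 (2.59) and Cyp2e1 (2.05) exceeded their values of 1.07, 1.13 and 1.13 in Malat1-poor barcodes. Over all 3448 genes the index was higher in members for 2003, so a higher value was common. Of the 41 zonated genes, 26 were higher in members and 15 lower. Among the latter, Glul stood at 1.04 in members and 2.59 in Malat1-poor barcodes, and Oat, of the same pericentral score genes, at 0.86 and 1.75.

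**Figure D5:**
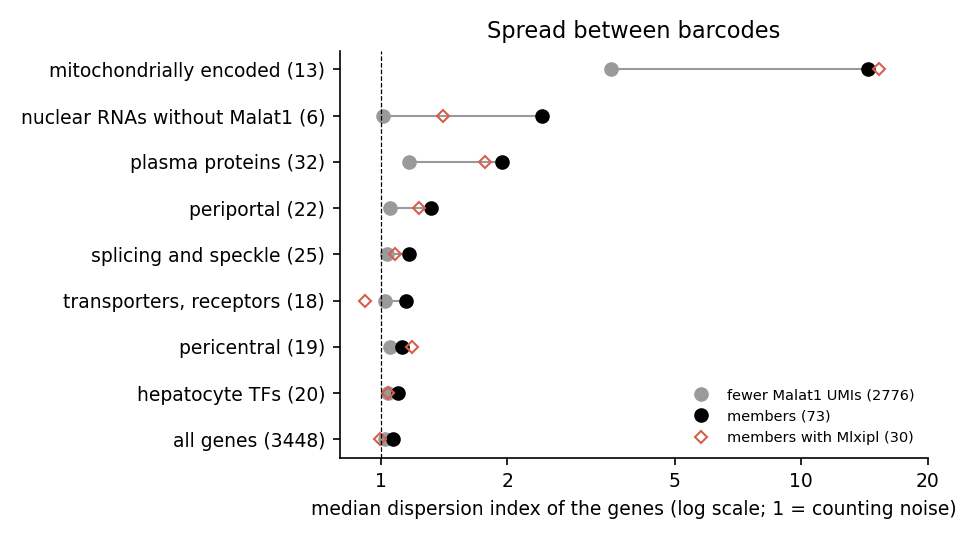
Median dispersion index (horizontal axis, log scale; 1 is counting noise) of each gene list in the Malat1-poor barcodes (grey), the 73 members (black) and the 30 Mlxipl members (diamonds). Mitochondrial genes lie furthest right at 14.4 in members, nuclear RNAs fall from 2.41 in members to 1.40 in Mlxipl members, and all genes lie near 1.

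Set beside the other Malat1-rich barcodes, the members held more Neat1 and, by a wider margin in CPM, more Mlxipl. Of 176 control barcodes with 7 or more Malat1 UMIs, 73 (41.5%, 34.1 to 49.1%) were members and 103 exceeded the marker limit. Those 103 detected a median of 1632 genes and held a median of 24 Malat1 UMIs (7 to 105). Neat1 was detected in 54.4% of them and Mlxipl in 12.6%. In CPM, members held more Neat1 by 2.12 and more Mlxipl by 3.96 on the log2 scale. In the tetYAP 4W library the same rule took 97 of 1524 barcodes (6.36%, 5.19 to 7.71%), 57 of them with Mlxipl (58.8%) and 57 with 5 or more UMIs of other cells' markers. Their mitochondrial median was 39%, and genotype and library cannot be told apart.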

How the data were processed

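RNA of single liver cells was captured on the Chromium platform with the v3 kit. Per the labels, the authors made the deposited counts with Cell Ranger on the mm10 mouse build, and their processing notes also name Seurat. The table holds raw UMI counts of 31053 genes for 4513 barcodes, and no barcode sequence was shared by the libraries. Groups came from the sample labels through the barcode names. The authors down-sampled each condition and excluded barcodes of very high totals, and the highest total in the table was 7493 UMIs, so shares of barcodes are shares of what they kept. No further barcode was filtered, and doublets were neither called nor removed; members with 5 or more UMIs of other cells' markers were left out as an alternative. Gene intervals come from RefSeq GRCm38.p6.

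UMIs were summed over groups of barcodes, scaled to counts per 1000000 UMIs (CPM), and compared as log2 ratios with a floor of 3 UMIs and exact conditional binomial 95% intervals; shares have Clopper-Pearson intervals. A fold limit of 1.5 was read at 100 or more UMIs over both groups. List medians took genes with 20 or more UMIs. Genes named were Malat1, Neat1, Mlxipl, Alb and the score genes, the 10 highest and 10 lowest log2 ratios at 100 or more UMIs (without rule and other-cell markers), the 15 of greatest dispersion and up to 4 of each list by UMIs; other listed genes were named after their values were seen. The members, gene lists and comparisons were chosen with earlier results of these data known. With 1 library per group no p-value was computed. On simulated counts of 4534 genes with 200 changed, 98% of the changed genes had their true value inside the interval. Alternatives changed the Malat1 and marker limits, mitochondrial share, depth, thinning, weighting and score genes. Analysis used Python 3.11.15, numpy 2.4.6, scipy 1.17.1, pandas 2.3.3 and matplotlib 3.10.9.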

Additional observations from a re-analysis of the deposited data

How the results depend on the processing

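The number of members moved from 73 to 198 with a Malat1 limit of 5 UMIs, to 36 with a limit of 10 and to 45 without barcodes over 30% mitochondrial UMIs; it was 54 with no marker UMI allowed and 69 at 2000 or more UMIs. The median log2 ratio of the nuclear RNA list, 3.24 as reported, was 2.28 with a limit of 5. The mitochondrial sum, 0.12 as reported, was -0.031 with a limit of 10 and -0.090 without barcodes over 30%, both of opposite sign. It was 0.048 with a limit of 5, 0.14 with no marker UMI allowed, 0.090 at 2000 or more UMIs, 0.15 for the highest Malat1 shares, 0.17 after thinning, 0.18 scaled to totals without mitochondrial UMIs and 0.25 with barcodes weighted equally. The plasma protein median, -0.36 as reported, was -0.15 with a limit of 5. In 3 alternatives chosen after seeing the data, a limit of 11 left 34 members and a mitochondrial sum of -0.095, Mlxipl members numbered 30 with a nuclear RNA median of 4.25, a plasma protein median of -0.48 and a mitochondrial sum of -0.039, and leaving out members with other cells' markers left 62. The nuclear RNA list holds Mlxipl itself, and the causes of these changes were not tested. The other 120 values stayed within their interval or, for member numbers, within 1.5 times, although the pericentral median went from -0.11 to 0.042 after thinning, among them the hepatocyte transcription factor median (0.35 to 0.93), the held-out pericentral median (0.08 to 0.93), the held-out periportal median (-0.83 to -0.16) and the zonated dispersion (1.13 to 1.26). No paired analysis was possible because each group has 1 library. The members' 278761 UMIs limit genes of few UMIs, and no value here has a replicate check.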

Other observations

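The genes that tissue dissociation is known to induce differed little per barcode between members with and without Mlxipl, and more in CPM. The list summed to 323 member UMIs, a log2 ratio of 0.22 (0.06 to 0.38) to Malat1-poor barcodes, with -0.02 (-0.29 to 0.23) in the 30 Mlxipl members and 0.40 (0.19 to 0.60) in the 43 others, or 4.17 and 4.60 UMIs a barcode. By Malat1 it was 0.47 (0.26 to 0.67) in the upper and -0.10 (-0.37 to 0.16) in the lower set. The immediate early genes Fos and Fosb held 0 UMIs in the Mlxipl members, against 14 and 6 UMIs in the others. In the 103 other liver cells they held 293 and 119 UMIs, and the whole list came to 22.3 UMIs a barcode there against 4.42 in members. Proliferation genes summed to 4 UMIs in the members, and no member held UMIs of 2 or more of them. In the tetYAP 4W barcodes of the same rule, nuclear RNAs without Malat1 came to 12.2 UMIs a barcode (11.6 to 13), against 9.26 (8.58 to 9.99) in the control members. The midzonal list came to 17.6 (16.8 to 18.5) there against 77.2 (75.2 to 79.2), of which Mup3 made up 684 of the tetYAP 4W and 3939 of the control UMIs. Hamp2, of the same list, went the other way, with 265 and 6 UMIs. Each group is 1 library, so genotype and library cannot be told apart.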
